A study of Mus musculus with 4 samples.

Results

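Spp1 Gpnmb macrophages are macrophages of dystrophic muscle that carry many transcripts of Spp1, which encodes the secreted matrix protein osteopontin, and of Gpnmb, a transmembrane glycoprotein of lysosomes. They were taken from quadriceps and diaphragm of mdx5cv mice, which lack functional dystrophin and model Duchenne muscular dystrophy, and were chosen by a gate on unique molecular identifiers (UMIs, each counting 1 captured transcript). A cell was a member if it had at least 3 UMIs of Gpnmb, at least 5 of Spp1 and at least 2 of the macrophage genes Adgre1, Csf1r and Cd68 together. It could have no more than 1 UMI of the resident macrophage genes Lyve1, Timd4 and Cd163, no more than 1 of genes of other cell types (Pdgfra, Lum, Cdh5, Cd3e and Cd79a) and none of the cell-cycle genes Top2a and Mki67. The gate found 989 cells, 650 in quadriceps and 339 in diaphragm, among 28163 filtered barcodes of all 4 libraries and 15736 of the mdx5cv libraries.

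The study profiled mononuclear cells of wild-type (WT) and mdx5cv muscle at 14 weeks of age, with 1 library of quadriceps and 1 of diaphragm for each genotype. The cells had been cryopreserved and were run with the 10x Genomics 3′ chemistry aiming at 5000 cells each. How many animals went into a library is not given in the labels. No group was replicated, so differences lack a check against replicates and p-values are not given.

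Lipid-associated macrophages are known from obese fat, atherosclerotic plaque, injured liver and demyelinated brain, where they take up lipid and dead cells. They handle that load with fatty acid-binding proteins, lysosomal hydrolases and the acidifying proton pump, and the lipid receptor Trem2 is needed for much of this state in mice. In muscle, macrophages clear necrotic fibres and signal to muscle stem cells and fibro/adipogenic progenitors, and osteopontin is a known promoter of fibrosis in dystrophic muscle.

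Filtered barcodes had at least 1000 UMIs, at least 500 genes and at most 15% mitochondrial UMIs, and numbered between 4911 and 8334 per library. Any 2 libraries shared between 5 and 17 barcodes, and no barcode was a member in both mdx5cv libraries. Scrublet marked 0 of 8334 barcodes of mdx5cv quadriceps as doublets, so its threshold had not worked there, and 293 of 7402 (3.96%) in mdx5cv diaphragm, 1 of them a member. Free RNA was estimated at 2.91% of members' UMIs in quadriceps and 1.81% in diaphragm. All ratios below are of UMIs summed over cells and scaled to equal totals as CPM, with exact 95% intervals in parentheses that cover counting error only and leave out differences between cells, animals and preparations.

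The 250 bases upstream of the RefSeq start are shown for Spp1 and Gpnmb, the genes of the gate, and for Mmp12, an elastase gene that ranked first among those lower in diaphragm than in quadriceps members. Sequences are from RefSeq (GRCm38.p6), 5′ to 3′ on the strand of the gene. Capitals mark matches on either strand to GAGGAAGT, a form of the site of the myeloid factor PU.1. Spp1 lies at chr5:104435118-104441050 on the plus strand, Gpnmb at chr6:49036546-49070929 on the plus strand and Mmp12 at chr9:7344381-7369499 on the plus strand.
Spp1 upstream window, chr5:104434861-104435110 (+ strand): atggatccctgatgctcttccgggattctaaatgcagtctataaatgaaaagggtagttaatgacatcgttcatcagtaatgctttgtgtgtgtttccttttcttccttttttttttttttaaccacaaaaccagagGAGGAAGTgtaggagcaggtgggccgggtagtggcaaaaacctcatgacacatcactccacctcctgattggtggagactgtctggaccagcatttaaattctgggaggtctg
Gpnmb upstream window, chr6:49036268-49036517 (+ strand): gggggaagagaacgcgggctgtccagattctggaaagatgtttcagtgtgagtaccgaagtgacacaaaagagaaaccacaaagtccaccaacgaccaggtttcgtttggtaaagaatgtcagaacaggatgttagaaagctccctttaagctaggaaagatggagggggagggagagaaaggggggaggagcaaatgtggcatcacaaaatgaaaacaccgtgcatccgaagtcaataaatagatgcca
Mmp12 upstream window, chr9:7344147-7344396 (+ strand): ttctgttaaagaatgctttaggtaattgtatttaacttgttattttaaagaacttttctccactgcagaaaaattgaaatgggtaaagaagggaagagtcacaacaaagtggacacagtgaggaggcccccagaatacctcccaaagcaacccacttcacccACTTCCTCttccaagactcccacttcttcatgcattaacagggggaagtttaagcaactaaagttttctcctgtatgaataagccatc
The Spp1 window held 1 PU.1 match, as written and starting 113 bases before the start, and the Mmp12 window held 1 in reverse complement at 88 bases. The Gpnmb window held none of the motifs searched. The starts are those of RefSeq and the gene positions those of GENCODE, and the last 16 bases of the Mmp12 window lie inside the GENCODE gene. CACGTG, the E-box core that the lysosome regulators TFEB, TFE3 and MITF can bind, was searched in the same windows of all genes in the table. Of the 48 genes at least 2-fold higher in members of both muscles, 37 had a promoter in the table. CACGTG was in 6 of these (16.2%, 6.19 to 32.0, exact binomial interval), namely Ctsd, Ctsl, Dpp7, Naglu, Pdpn and Rnh1. For Ctsd and Ctsl the window overlaps the GENCODE gene by 211 and 250 bases, so it is not upstream of every annotated start. The motif was in 9.81% of the 2181 available promoters of genes measured at 50 CPM in both muscles, and in 6.05% of 27025 promoters in the table. TGACTCA, the AP-1 site, was in 2 of the 37 (5.41%), Aprt and the gate gene Cd68, in 3.16% of the 2181 and in 4.43% of all promoters. GAGGAAGT was in 1 of the 37 (2.70%), the gate gene Spp1, in 3.44% of the 2181 and in 2.44% of all. Of 48 promoters of genes lower in members of both muscles, 6 (12.5%, 4.73 to 25.25) held GAGGAAGT, 2 (4.17%) CACGTG and 2 (4.17%) TGACTCA. Both strands were searched, CACGTG reads the same on either, and a match is a run of letters, not a bound site.

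With the main filters, members made up a like share of the macrophages in both mdx5cv muscles and were not seen in WT muscle. They were 650 of 3062 macrophages in mdx5cv quadriceps, or 21.2% (19.8 to 22.7, exact binomial interval), and 339 of 1418 in mdx5cv diaphragm, or 23.9% (21.7 to 26.2). Macrophages here are members plus cells that pass the same macrophage terms and hold at least 3 UMIs of C1qa, C1qb and C1qc, subunits of complement C1q. Of all filtered barcodes, members were 7.80% (7.23 to 8.40) in quadriceps and 4.58% (4.12 to 5.08) in diaphragm, and macrophages were 36.7% and 19.2%. The gate found 0 of 167 macrophages in WT quadriceps, which allows a share of up to 1.80%, and 0 of 127 in WT diaphragm, which allows up to 2.36%. WT macrophages were shallower, with medians of 3001 UMIs in quadriceps and 4020 in diaphragm, against 5868 and 6286.5 in mdx5cv macrophages. With each cell thinned to 3000 UMIs before gating, the shares of mdx5cv macrophages were 14.4% (13.1 to 15.8) in quadriceps and 16.2% (14.2 to 18.4) in diaphragm. The gate then found 0 of 77 in WT quadriceps, which allows up to 3.90%, and 0 of 89 in WT diaphragm, which allows up to 3.37%. The gap between the mdx5cv muscles was not stable. With at least 3 C1q UMIs also asked of members the shares were 19.2% in quadriceps and 19.1% in diaphragm. With a mitochondrial limit of 5% they lay further apart, at 18.8% in quadriceps and 27.4% in diaphragm.

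The thresholds lay within a continuous spread of Spp1 and Gpnmb counts. Members in quadriceps held a median of 25 Spp1 UMIs, from 5 to 748, and a median of 15 Gpnmb UMIs, from 3 to 243. In diaphragm the medians were 37 for Spp1, from 5 to 738, and 12 for Gpnmb, from 3 to 131. In quadriceps, the 75 members just inside the gate, with Gpnmb at 3 or Spp1 at 5 UMIs, had 2230 CPM of Fabp5, and the 97 cells just outside had 2599 CPM. In diaphragm the 29 cells just inside had 4092 CPM and the 56 just outside 3211 CPM. Cells just inside were thus lower than those just outside in quadriceps and higher in diaphragm for this fatty acid-binding protein gene, and both lay below the 5271 and 5953 CPM of all members. Members held 62.5% of the Spp1 UMIs of all filtered barcodes in mdx5cv quadriceps and 68.4% in diaphragm, and 57.4% and 57.5% of those of Gpnmb, from 11.9% and 7.21% of all UMIs. The tenth of members with the most Spp1 held 45.3% of the members' Spp1 UMIs in quadriceps and 41.3% in diaphragm.

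**Figure D1:**
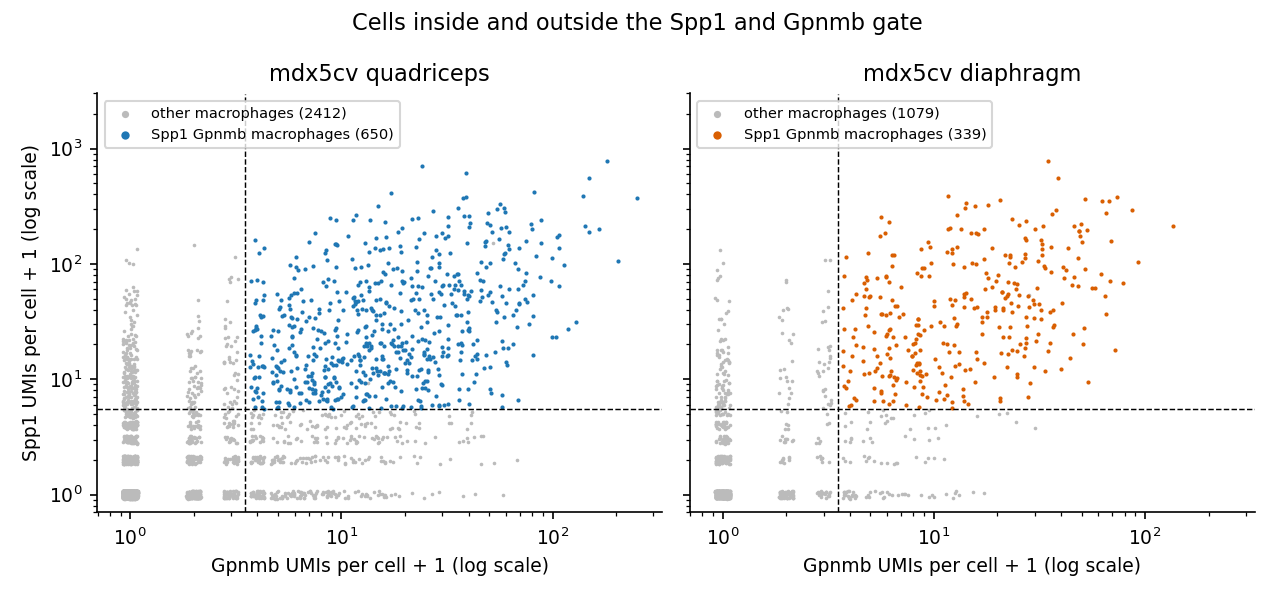
Spp1 UMIs (y axis) against Gpnmb UMIs (x axis) per cell, each plus 1, on log scales with slight random spread, for members (coloured) and other macrophages (grey) of each mdx5cv library. Dashed lines mark the gate at 3 Gpnmb and 5 Spp1 UMIs, and both libraries fill the area on all sides of the lines.

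Members were deeper than the cells they were compared with, and the part of a gate on raw UMIs in this was not tested. Their median was 9483.5 UMIs in quadriceps and 8815 in diaphragm, against 5321 and 5651 in other macrophages. Spp1 was detected in 3.75% of T cells and 4.13% of endothelial cells of mdx5cv quadriceps, and in 2.66% and 2.68% of those of mdx5cv diaphragm. Gpnmb was detected in 1.25%, 1.61%, 3.80% and 3.75% of the same cells, and none of them met both minimums of the gate.

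The 5 marker genes of the population, the 2 of the gate among them, were at least 2-fold higher in members of both muscles, whereas Trem2 and Apoe, also often listed with this state, were not. Lgals3, encoding the glycan-binding protein galectin-3, stood at 4457 CPM in quadriceps and 5077 in diaphragm members, against 1377 and 1262 in other macrophages, ratios of 3.24 (3.18 to 3.30) and 4.02 (3.92 to 4.13). Syngr1, encoding a vesicle membrane protein, stood at 445 and 545 CPM, against 107 and 99.9, ratios of 4.16 (3.91 to 4.42) and 5.46 (4.98 to 5.98). In WT macrophages, Syngr1 had 1 UMI in each library. The lipid receptor gene Trem2 had ratios of 1.86 (1.80 to 1.93) and 2.08 (1.96 to 2.21), so it passed 2-fold in diaphragm alone. Cd9, encoding a tetraspanin, had ratios of 2.40 (2.30 to 2.49) and 2.92 (2.76 to 3.10). Apoe, the lipoprotein gene often listed with this state, stood at 7945 and 8755 CPM in members and at 9256 and 10961 CPM in other macrophages. The 5 markers were chosen with earlier results of these data known, and 2 of them set the gate. Their levels therefore describe the members and do not test the name. Trem2 was less raised than Fabp5, and Apoe lay slightly below the other macrophages.

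Spp1 itself stood at 5568 CPM in quadriceps and 7493 in diaphragm members and at 478 and 520 CPM in other macrophages. Gpnmb stood at 2385 and 1995 CPM in members and at 316 and 139 CPM in other macrophages. These values chose the members and are given as a description. In WT macrophages, Spp1 stood at 75.3 CPM in quadriceps and 13.3 in diaphragm, and Gpnmb at 6.85 and 1.66 CPM, the last from 1 UMI.

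**Figure D2:**
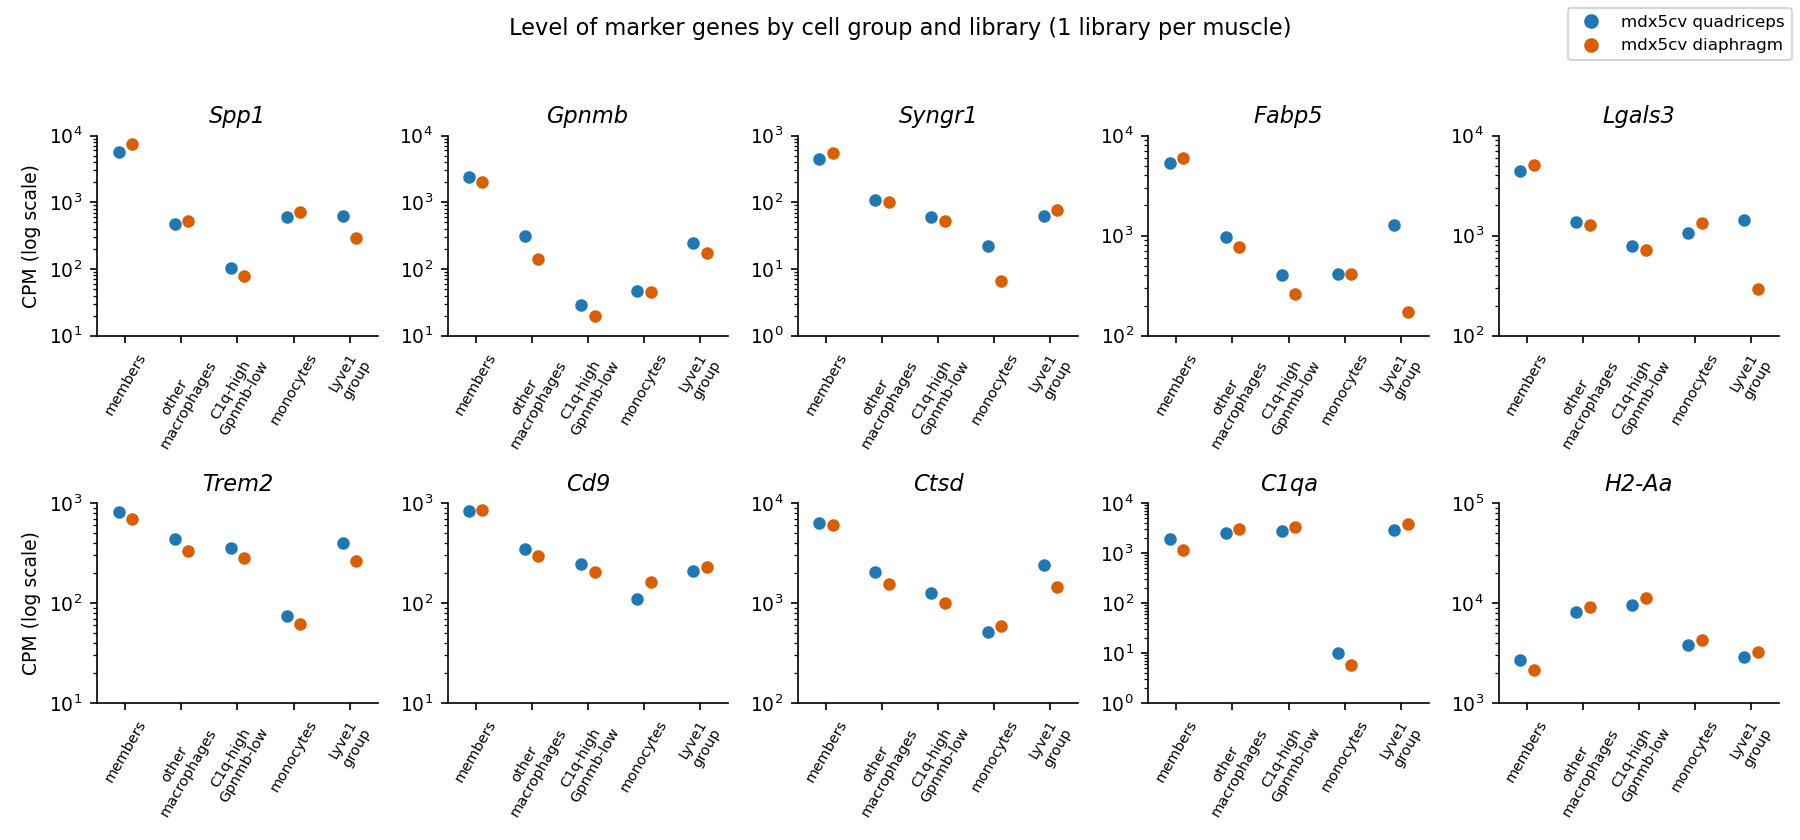
Level in CPM (y axes, log scale) of 10 genes in members, all other macrophages, and 3 other cell groups of mdx5cv quadriceps (blue) and mdx5cv diaphragm (orange), 1 library per muscle. C1q-high Gpnmb-low cells are part of the other macrophages, as is the Lyve1 group of 40 and 29 cells. The Ly6c2 Chil3 Plac8 monocytes were chosen to hold under 3 C1q UMIs. The first 5 genes are the population's markers, and H2-Aa is lower in members than in every other group shown.

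Against the other macrophages of the same library, 48 of 2707 genes with at least 50 CPM were at least 2-fold higher in both muscles (1.77%) and 63 at least 2-fold lower (2.33%). The 48 include Spp1, Gpnmb and Cd68 of the gate. In quadriceps alone 58 of 2957 genes were higher (1.96%) and 73 lower (2.47%), and in diaphragm 97 of 2892 were higher (3.35%) and 166 lower (5.74%). Without the other macrophages that had Gpnmb above 1 UMI or Spp1 above 2 UMIs, 88 genes were higher in both muscles and 109 lower, and ratios were larger, such as a log2 ratio of 3.71 in place of 2.43 for Fabp5 in quadriceps and 4.58 in place of 2.94 in diaphragm. Of 29 measured genes of the lipid-associated programme, 15 were higher in quadriceps and 0 lower, and 14 were higher in diaphragm and 1, the receptor tyrosine kinase gene Axl, lower. Their median log2 ratio was 1.02 in quadriceps and 0.89 in diaphragm, where the median of all genes was -0.01 and 0.05. The genes of this list higher in both muscles were Cd9, Syngr1, Fabp5, Lgals3, Ctsd, Ctsb, Ctsl, Cstb, Plin2, Atp6v0d2, Vat1 and Creg1.

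Genes of fatty acid uptake and intracellular carriage were among those that differed most. Fabp5 had 34871 UMIs in quadriceps members, 5271 CPM (5215 to 5326), against 975 CPM in other macrophages, a ratio of 5.40 (5.30 to 5.51). In diaphragm the levels were 5953 CPM (5869 to 6039) and 777 CPM, a ratio of 7.66 (7.43 to 7.90). Fabp5 has closely related copies in the genome, and how the authors' counting shared reads among them was not tested. Fabp4, a further fatty acid-binding protein, stood at 533 and 451 CPM in members, ratios of 4.06 (3.84 to 4.29) and 4.10 (3.74 to 4.49), though gated on thinned cells its log2 ratio in quadriceps was 0.97. Fabp3, a form known from heart and muscle, stood at 53.1 and 88.2 CPM, ratios of 3.95 (3.30 to 4.73) and 4.96 (3.98 to 6.21). For the scavenger receptor and fatty acid transporter gene Cd36 the ratios were 3.59 (3.43 to 3.76) and 3.46 (3.16 to 3.80), and Slc27a1, encoding a fatty acid transport protein, had 2.28 and 2.68. These 5 were the members of a 14-gene list of fatty acid uptake and oxidation that passed 2-fold in both muscles, and 0 were lower. The measured oxidation genes stayed near the other macrophages: Cpt1a, the entry step of long chains into mitochondria, had ratios of 1.01 and 1.46, and Acadm, an acyl-CoA dehydrogenase, 1.03 and 0.95. Plin2, which coats lipid droplets, stood at 1113 and 1369 CPM, ratios of 2.23 (2.15 to 2.30) and 2.51 (2.40 to 2.62). A list labelled lipid export also holds genes with other roles, such as the droplet gene Plin2 and the lipoprotein lipase gene Lpl. Of 14 genes on it, 2 were higher in quadriceps (Lpl and Plin2) and 4 in diaphragm (Apoc2, Plin2, Soat1 and Nceh1). The efflux pump gene Abca1 had ratios of 1.09 and 0.86.

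Lysosomal genes were raised as a group by less than 2-fold, with cathepsins at the top. Of 36 lysosomal genes measured in quadriceps, 5 were higher and 1 lower, with a median log2 ratio of 0.52, and of 34 in diaphragm 7 were higher and 1 lower, with a median of 0.55. Ctsd, an aspartic protease, stood at 6384 and 5990 CPM in members and 2031 and 1553 in other macrophages, ratios of 3.14 (3.10 to 3.19) and 3.86 (3.77 to 3.95). Ctsl, a cysteine protease, had ratios of 3.45 (3.36 to 3.53) and 3.18 (3.05 to 3.32), and Ctsb, another, 2.03 and 2.36. Ctsk, a collagen-degrading cathepsin known from osteoclasts, had few UMIs, 627 in quadriceps and 169 in diaphragm members, and ratios of 5.76 (4.95 to 6.73) and 6.31 (4.63 to 8.72). Over the processing alternatives its log2 ratio lay between 1.39 and 3.99 for quadriceps and between 1.47 and 3.87 for diaphragm, and free RNA could give 24.8% and 42.9% of its UMIs in other macrophages. Galns, a sulfatase of keratan sulfate breakdown, was the other gene of the list higher in both muscles, and Ctsc, a dipeptidyl peptidase, the 1 lower in both, with ratios of 0.499 and 0.41. Of 17 subunits of the proton pump, 2 were at least 2-fold higher in both muscles, the accessory subunit Atp6v0d2 at 4.36-fold (3.95 to 4.82) and 3.36-fold (2.65 to 4.29), and Atp6v1c1 at 2.25-fold and 2.37-fold. The median log2 ratio of the pump was 0.56 and 0.67, and 0 subunits were lower.

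Outside these lists, several genes named by the ranking rule have less familiar roles in macrophages. Rnf128, encoding the ubiquitin ligase GRAIL, stood at 79.7 and 60.5 CPM in members, ratios of 5.04 (4.30 to 5.91) and 7.44 (5.46 to 10.3). F7, encoding coagulation factor VII, stood at 57.6 and 74.4 CPM, ratios of 4.57 (3.82 to 5.49) and 8.66 (6.44 to 11.8). Clec4d, a C-type lectin receptor of myeloid cells, was 3.11-fold and 2.94-fold higher, Vat1, a vesicle protein, 2.98-fold and 3.54-fold, and Il7r, the interleukin-7 receptor chain, 2.91-fold and 3.09-fold. For Ftl1, the ferritin light chain that stores iron, ratios were 2.01 (1.99 to 2.03) and 2.20 (2.17 to 2.23). The glycolytic gene Pgam1 was 2.36-fold and 2.76-fold higher, and 1 other of 13 glycolysis genes in quadriceps (Hk3) and 2 others in diaphragm (Aldoa and Pkm) passed 2-fold. None of 19 measured genes of the citric acid cycle and respiration did.

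Members were also compared with 3 narrower cell groups. C1q-high Gpnmb-low cells, 1362 in quadriceps and 698 in diaphragm, are other macrophages with at least 10 C1q UMIs, at most 1 of Gpnmb and at most 4 of Spp1. Against them 118 of 3047 genes were higher in quadriceps members (3.87%) and 132 lower (4.33%), and 164 of 2942 were higher in diaphragm (5.57%) and 233 lower (7.92%). Of the 29 lipid-associated genes, 24 were higher there in quadriceps and 18 in diaphragm, with medians of 1.39 and 1.18, and Fabp5 stood at 403 and 260 CPM in these cells. Against the Lyve1 group, only 40 and 29 cells, quadriceps members were higher for 5.44% of 3233 genes and lower for 8.29%, and 11.8% of 3214 were higher and 16.6% lower in diaphragm. Monocytes, 477 and 260 cells, were asked for at least 5 UMIs of Ly6c2, Chil3 and Plac8 together and under 3 of C1q. Against them, 9.96% of 3212 genes were higher in quadriceps members and 10.6% lower, and 8.95% of 3029 were higher and 10.3% lower in diaphragm. Monocytes held 418 and 412 CPM of Fabp5, 513 and 591 of Ctsd and 605 and 712 of Spp1, all under the members' levels. Their Chil3 stood at 879 and 534 CPM, above the members' levels. Monocytes were chosen partly for Chil3 and members for Spp1, so the values of these genes are given as a description.

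Antigen presentation genes were lower in members. Of 9 genes on the MHC class II list, which present peptides to CD4 T cells, 8 were at least 2-fold lower in both muscles, with a median log2 ratio of -1.41 in quadriceps and -2.07 in diaphragm. H2-Aa stood at 2693 CPM in quadriceps and 2144 in diaphragm members, against 8133 and 9216 in other macrophages, so it was 3.02-fold (2.97 to 3.07) and 4.30-fold (4.19 to 4.41) lower. H2-Eb1 was 3.27-fold and 5.07-fold lower, the invariant chain gene Cd74 2.88-fold and 4.27-fold, and Ciita, the master regulator of the class, 2.65-fold (2.33 to 3.04) and 6.36-fold (4.82 to 8.55). The exception on the list was Ctss, the cathepsin that trims the invariant chain, with ratios of 1.37 and 1.57. At an equal depth of 3000 UMIs per cell, 47.7% of members in quadriceps and 37.5% in diaphragm had at least 20 UMIs of H2-Aa, H2-Ab1, H2-Eb1 and Cd74 together, against 73.9% and 81.6% of other macrophages. Tmem176b and Tmem176a, which encode channel-like proteins of intracellular membranes, were 4.71-fold and 7.57-fold, and 4.60-fold and 6.65-fold, lower.

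Dendritic cells, which also carry MHC class II, were sparse in both groups by their markers. Flt3 stood at 3.63 and 0 CPM in quadriceps and diaphragm members and 4.13 and 2.76 CPM in other macrophages, and Zbtb46 at 1.21, 0.315, 2.03 and 2.30 CPM. Cd209a stood at 8.31 and 3.15 CPM in members and 33.5 and 21.2 CPM in other macrophages. The 11 dendritic markers summed to 80.3 and 179 CPM in members, of which Cd24a was 54.6 and 171, and to 87.7 and 87.8 CPM in other macrophages. Their part in the class II difference was not tested.

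Several genes of resident macrophages and several chemokines were lower too. Of 18 resident genes measured in quadriceps and 19 in diaphragm, 0 were higher and 8 and 7 lower, with 7 lower in both muscles: Mrc1, Retnla, Ccl8, Mgl2, Clec10a, Igfbp4 and Fcrls. The mannose receptor gene Mrc1 was 2.89-fold (2.71 to 3.08) and 4.09-fold (3.63 to 4.61) lower. Retnla, a secreted marker of interleukin-4 activation, had 46 UMIs in quadriceps members, 6.95 CPM, and 108 in diaphragm members, 34.0 CPM, against 423 and 122 CPM in other macrophages. At equal depth, 4.87% of other macrophages in quadriceps and 1.28% of members there had a UMI of Retnla, so its level rested on few cells. In WT macrophages Retnla stood at 16160 and 7610 CPM, and free RNA could give 57.5% of its UMIs in quadriceps members. Of the genes of alternative activation, the state driven by interleukin-4, 5 of 8 were lower in quadriceps and 0 higher. In diaphragm 5 of 9 were lower, and Arg1 and Chil3 were 2.54-fold and 2.62-fold higher. Few diaphragm cells held Arg1, with a UMI in 33 of 339 members and 46 of 1079 other macrophages. Of 15 inflammatory mediators, 6 were lower in quadriceps and 8 in diaphragm, and 0 were higher in either muscle. Ccl8, Ccl12 and Cxcl10, chemokines that recruit monocytes and T cells, were 2.72-fold, 3.12-fold and 2.47-fold lower in quadriceps and 9.60-fold, 9.23-fold and 4.13-fold lower in diaphragm. Il1b, encoding the inflammatory cytokine interleukin-1 beta, was 2.89-fold (2.46 to 3.41) and 4.97-fold (4.30 to 5.77) lower, while Ccl2, a further monocyte attractant, had ratios of 1.07 and 1.62. Monocyte genes were mixed: Ccr2, a chemokine receptor gene, and Plac8 were lower in both muscles, Ccr2 by 3.36-fold and 3.12-fold, and Msrb1, a methionine sulfoxide reductase gene, was higher in both. In diaphragm Chil3, Thbs1 and F10, encoding coagulation factor X, were also higher, which makes 1 higher and 2 lower of 11 in quadriceps and 4 and 2 of 12 in diaphragm, with medians of 0.02 and 0.36. Ly6c2, a surface antigen of inflammatory monocytes, stood at 91.8 and 139 CPM in members and 77.1 and 98.6 CPM in other macrophages.

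Receptors for osteopontin were present in members at levels close to those of other macrophages. Cd44, a cell surface receptor of osteopontin and hyaluronan, stood at 390 and 374 CPM in members and 345 and 391 CPM in other macrophages, and none of 6 measured receptor genes passed 2-fold in either muscle. Of 13 measured growth factors and matrix signals to stromal cells, Lgals3 was the 1 higher in quadriceps, and in diaphragm Lgals3 and Thbs1 were higher and Pdgfb, a platelet-derived growth factor chain, was lower. The medians of the list were 0.40 and 0.18 on the log2 scale. Tgfb1, the main fibrogenic cytokine, stood at 227 and 217 CPM in members and 226 and 199 CPM in other macrophages. Igf1, a growth factor for muscle, stood at 344 and 249 CPM, ratios of 1.89 (1.79 to 2.004) and 1.36 (1.27 to 1.45). Of the measured transcription factors, 0 of 20 passed 2-fold in quadriceps. In diaphragm 1 of 19 did so upwards, Bhlhe41, at 50.1 CPM against 17.6, and 3 downwards, Klf2, Mef2c and Runx3.

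**Figure D3:**
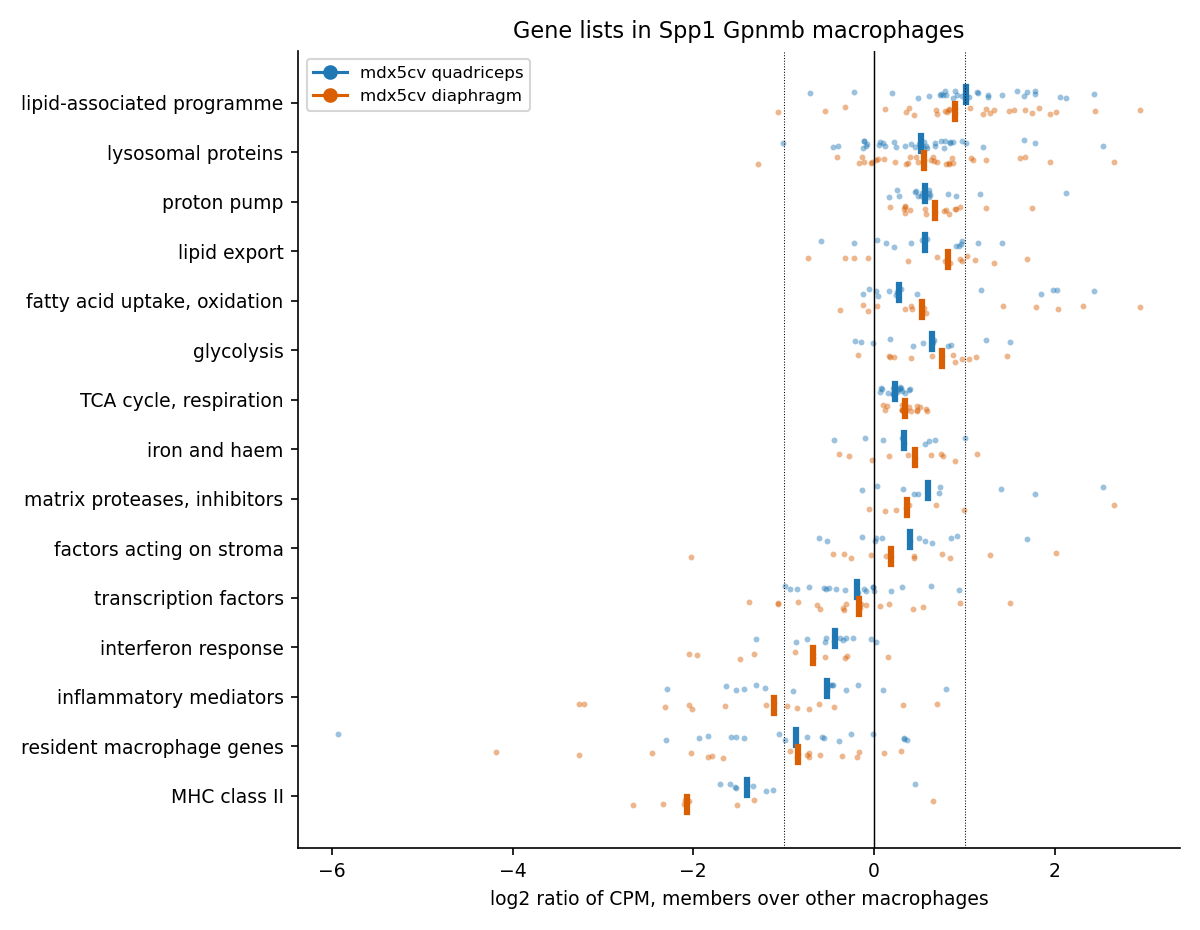
log2 ratio of CPM in members over other macrophages (x axis) for the measured genes of 15 lists (points) in mdx5cv quadriceps (blue) and mdx5cv diaphragm (orange), with list medians as vertical bars and dotted lines at 2-fold. The lipid-associated programme has medians of 1.02 and 0.89 and MHC class II of -1.41 and -2.07.

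Between muscles, members of diaphragm had less Mmp12, Lpl and Folr2 and more Chil3, Cd24a and Apoc2 than those of quadriceps. Of 2824 genes with at least 50 CPM, 22 were at least 2-fold higher in diaphragm (0.779%) and 35 at least 2-fold lower (1.24%). Among other macrophages the counts were 25 (0.861%) and 17 (0.585%) of 2904 genes. They were 0.788% and 0.479% of 2920 genes in C1q-high Gpnmb-low cells and 0.838% and 0.871% of 2985 in monocytes. All 22 genes higher in diaphragm members were also above 1-fold in the other macrophages and 6 of them past 2-fold there, 27.3% of the 22 and 24% of the 25. Of the 35 lower genes, 29 were also below 1-fold and 9 past 2-fold, 25.7% of the 35 and 52.9% of the 17. Over all 2904 genes in other macrophages the median log2 ratio was -0.059, and how many lay on each side of 1-fold was not counted. Both cell groups come from the same 2 libraries, so a difference between libraries is shared by them, and muscle, animal and preparation cannot be told apart.

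Mmp12, the macrophage elastase, had 5418 UMIs in quadriceps members, 819 CPM, and 531 in diaphragm members, 167 CPM. It was thus 4.90-fold (4.48 to 5.36) higher in quadriceps members and 2.30-fold (2.11 to 2.50) in other macrophages of quadriceps. In WT macrophages it stood at 20.5 CPM in quadriceps, from 12 UMIs, and at 176 CPM in diaphragm, from 106 UMIs, the opposite order. Few cells held most of it: the tenth of members with the most Mmp12 held 85.6% of its UMIs in quadriceps and 94.9% in diaphragm, and at equal depth 27.0% (23.6 to 30.7) and 11.3% (8.07 to 15.2) of members had a UMI. Lpl, encoding lipoprotein lipase, which frees fatty acids from lipoproteins, stood at 1844 CPM in quadriceps and 463 in diaphragm members, 3.98-fold (3.77 to 4.20) higher in quadriceps. In other macrophages it stood at 690 and 268 CPM, 2.57-fold (2.44 to 2.71) higher in quadriceps. At equal depth 78.9% of quadriceps members had a UMI of Lpl and 46.0% of diaphragm members. Of the 48 genes higher in members of both muscles, Atp6v0d2 and Cd24a also passed 2-fold between muscles, Atp6v0d2 at 179 and 58.3 CPM, 3.08-fold (2.63 to 3.61) higher in quadriceps. In other macrophages Atp6v0d2 stood at 41.1 and 17.3 CPM.

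Other ranked genes higher in quadriceps members have varied roles. Folr2, a folate receptor of resident macrophages, stood at 443 CPM in quadriceps and 95.5 in diaphragm, Mfge8, a bridging protein for dying cells, at 178 and 41.9, and Plau, encoding urokinase, at 67.3 and 20.8. In other macrophages Folr2 stood at 344 and 144 CPM, Mfge8 at 42.5 and 12.1, and Plau at 49.5 and 20.6, also higher in quadriceps. The integrin gene Itgax stood at 229 and 69.0 CPM in members, 3.32-fold (2.88 to 3.84) higher in quadriceps, and at 132 and 100 CPM in other macrophages, 1.32-fold (1.20 to 1.44) higher. Ccl8 stood at 165 and 46.9 CPM in members and at 448 and 451 CPM in other macrophages, which did not differ by muscle beyond counting error. The members' Ccl8 rested on few cells, as 123 of 650 in quadriceps and 26 of 339 in diaphragm had a UMI. In diaphragm the highest member held 45 of the 149 UMIs. Of 9 interferon response genes measured in members, 3 were lower in diaphragm and 0 higher, with Ifit3 at 65.8 and 17.6 CPM and Rsad2 at 90.1 and 35.9 CPM. In other macrophages Ifit3 and Rsad2 had diaphragm over quadriceps ratios of 0.89 and 1.13. Among 10 matrix proteases and inhibitors, 3 were lower in diaphragm members, Mmp12, Plau and Adam9, and 0 higher.

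Genes higher in diaphragm members came from several groups. Chil3, a chitinase-like protein of monocytes and activated macrophages, stood at 57.4 CPM in quadriceps and 189 in diaphragm members, 3.29-fold (2.88 to 3.75) higher, and at 56.5 and 72.1 CPM in other macrophages. Cd24a, a surface sialoglycoprotein, stood at 54.6 and 171 CPM, 3.13-fold (2.73 to 3.59) higher, and Apoc2, the activator of lipoprotein lipase, at 120 and 319 CPM, 2.66-fold (2.42 to 2.92). Thbs1, encoding the matrix protein thrombospondin-1, stood at 78.3 and 192 CPM, 2.45-fold (2.18 to 2.76) higher, and F13a1, encoding a subunit of coagulation factor XIII, at 78.3 and 176 CPM, 2.25-fold (1.99 to 2.54). Ass1 and Arg1, enzymes of arginine metabolism, rested on 111 and 204 and on 134 and 173 UMIs, and were 3.83-fold (3.02 to 4.87) and 2.69-fold (2.13 to 3.40) higher. The Arg1 UMIs lay in 19 of 650 members in quadriceps and 33 of 339 in diaphragm. Complement C3 had 80 and 165 UMIs and was 4.30-fold (3.27 to 5.69) higher, while free RNA could give 45.4% of its UMIs in quadriceps members. In other macrophages the diaphragm over quadriceps ratios were 2.61 for Ass1, 2.21 for Arg1 and 2.02 for C3. There they were 1.39 for Cd24a, 1.24 for Apoc2, 1.57 for Thbs1 and 1.05 for F13a1. With a mitochondrial limit of 5% in place of 15%, which kept 189 members in quadriceps and 213 in diaphragm, the log2 ratios of Arg1, Il1b and Thbs1 between muscles were under 2-fold, at 0.46, 0.37 and 0.88, and that of Hsp90aa1 was 0.91. With the looser gate that of F13a1 was 0.94.

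Glycolysis genes were higher in diaphragm members as a group, with a median log2 ratio of 0.53 over 14 genes, though only Eno1, the enolase gene, passed 2-fold, at 182 and 425 CPM, 2.33-fold (2.16 to 2.53). The same median was 0.33 over 12 genes in other macrophages. Stress and immediate early genes had a median of 0.58 over 18 genes in members and 0.67 in other macrophages. Hsp90aa1, a heat shock chaperone, stood at 414 and 978 CPM in members and 526 and 1411 in other macrophages, and Ier3, an immediate early gene, at 112 and 279 CPM in members and 191 and 415 CPM. The part of cell handling in these differences between libraries was not tested. Haem oxygenase gene Hmox1 stood at 256 and 530 CPM in members and 239 and 473 CPM in other macrophages.

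**Figure D4:**
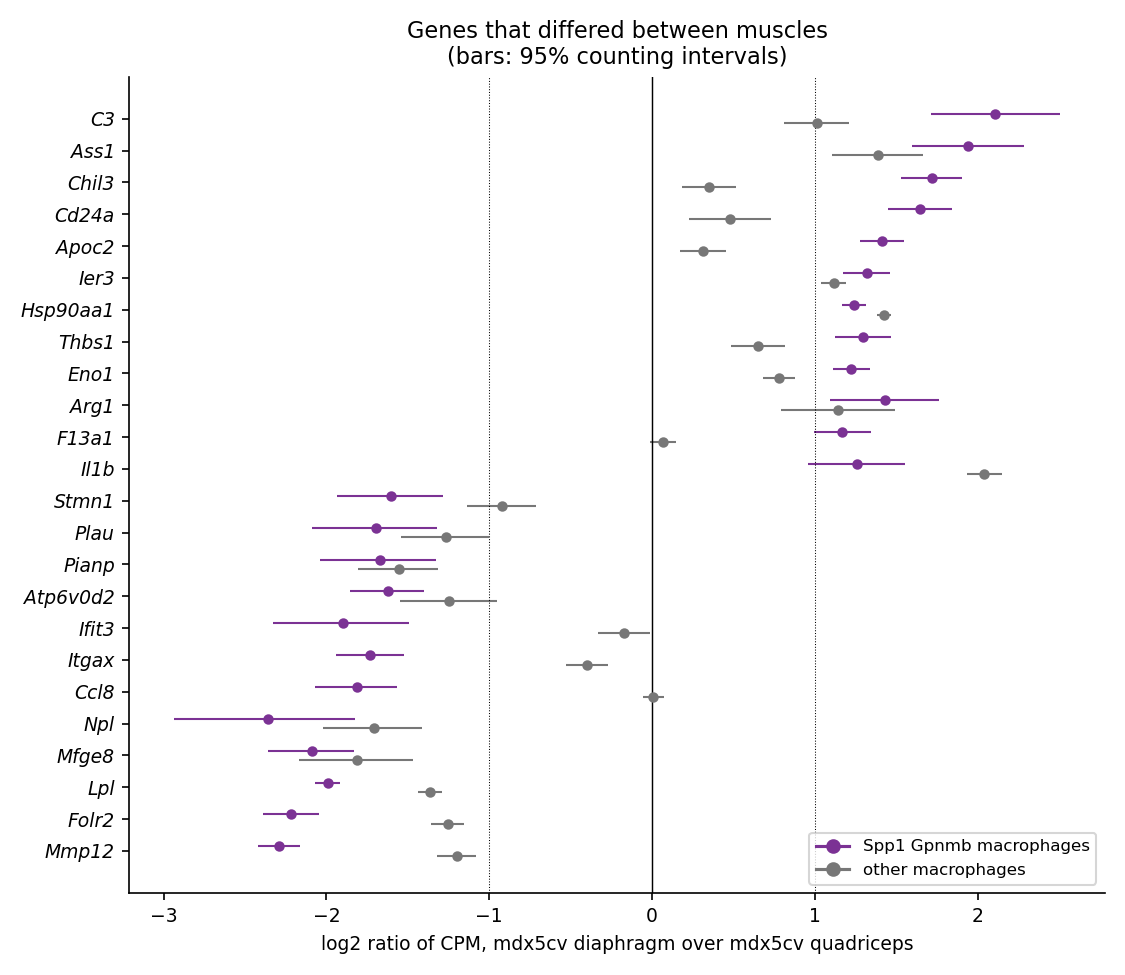
log2 ratio of CPM in mdx5cv diaphragm over mdx5cv quadriceps (x axis) for the 12 highest and 12 lowest genes of the ranking, in members (purple) and in other macrophages (grey), with exact 95% counting intervals as bars and dotted lines at 2-fold. Mmp12 and Lpl lie to the left in both groups, whereas Ccl8 lies to the left in members and at 0 in other macrophages.

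Members of the muscles also differed in how many cells held C1q and the monocyte genes Ly6c2, Chil3 and Plac8. At equal depth, 85.9% (82.9 to 88.6) of members in quadriceps and 70.7% (65.5 to 75.6) in diaphragm had at least 3 UMIs of C1qa, C1qb and C1qc, and 10.9% (8.55 to 13.6) and 25.9% (21.3 to 31.0) had at least 2 UMIs of those monocyte genes, of which Chil3 was also ranked for its difference between muscles. Other macrophages were asked to hold C1q, so their shares of 96.5% and 96.9% follow from that choice. Their monocyte shares were 12.6% and 13.8%. Not all monocyte genes showed this: 29.9% (26.4 to 33.7) of members in quadriceps and 27.4% (22.7 to 32.6) in diaphragm had a UMI of Ccr2, and 2.56% and 1.83% one of Vcan. In unthinned counts, 78 members in quadriceps and 85 in diaphragm held under 3 C1q UMIs. These C1q-poor members, a split chosen after values were seen, had 6242 and 5540 CPM of Fabp5 and 5212 and 5704 CPM of Lgals3. All members were chosen for Spp1 and Gpnmb, and whether the defining genes depend on C1q was not tested. The C1q-poor members had more Thbs1 than members with at least 10 C1q UMIs, 313 against 55.9 CPM in quadriceps and 308 against 157 CPM in diaphragm, and more Chil3, 200 against 41.9 and 318 against 159 CPM. Among members with at least 3 C1q UMIs alone, Mmp12 was 4.53-fold (4.13 to 4.98) and Lpl 4.05-fold (3.82 to 4.31) higher in quadriceps, and Chil3 3.54-fold (3.03 to 4.15) higher in diaphragm. Members with at least 3 C1q UMIs were 572 of the 650 in quadriceps and 254 of the 339 in diaphragm, so these ratios largely repeat those of all members. The part of C1q-poor members in the differences between muscles was not tested.

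**Figure D5:**
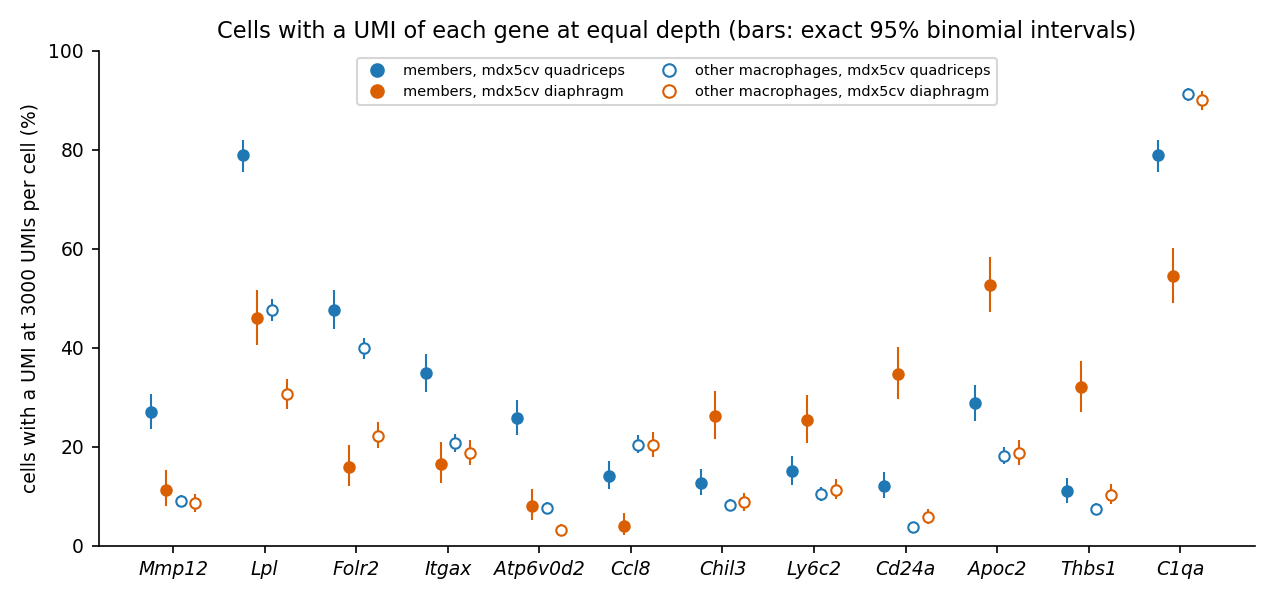
Percent of cells with at least 1 UMI of each of 12 genes after thinning every cell to 3000 UMIs (y axis), for members (filled) and other macrophages (open) of mdx5cv quadriceps (blue, 625 and 2035 cells) and mdx5cv diaphragm (orange, 328 and 962 cells), with exact 95% binomial intervals as bars. Lpl was found in 78.9% and 46.0% of members and Chil3 in 12.6% and 26.2%.

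Among cells that met the Spp1 and Gpnmb thresholds, the share excluded for cell-cycle genes was higher in quadriceps. Of 837 such cells in quadriceps, 124 (14.8%, 12.5 to 17.4) were excluded for a UMI of Top2a or Mki67, against 25 of 402 (6.22%, 4.07 to 9.04) in diaphragm. The cells excluded for cell-cycle genes had medians of 13641.5 and 10272 UMIs, against 9483.5 and 8815 in members, and the part of depth was not tested. The resident genes excluded 4 (0.478%) and 1 (0.249%) cells. Genes of other cell types excluded 72 (8.60%, 6.79 to 10.7) and 38 (9.45%, 6.78 to 12.7), with overlapping intervals. Markers of other cell types were low in members: the 10 fibroblast markers summed to 473 and 495 CPM, against 489 and 567 CPM in other macrophages, and the 10 T and NK markers to 177 and 185 CPM, against 114 and 148 CPM. The 10 B cell markers summed to 71.5 and 75.3 CPM, with Ighd, Pax5, Iglc2 and Fcmr at 0 in both libraries. Endothelial markers summed to 553 and 474 CPM in members, of which Fabp4, a gene high in members, was 533 and 451.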

How the data were processed

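Mononuclear cells of 4 libraries were measured with the 10x 3′ v3.1 chemistry. The deposited matrices are unfiltered and hold raw UMI counts per gene and barcode, made with Cell Ranger 5.0.0 on mm10 per the submitters' processing notes, while the file header names Cell Ranger 4. Introns, annotation and strand settings are not given in the sources used here. Total UMIs were between 18837891 and 62780685 per library. Of 32285 gene identifiers, 32158 (99.6%) were found in GENCODE M21 (GRCm38), used for positions.

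The members and gene lists were chosen with earlier results of these data known. Counts were summed per cell group and library, and ratios of CPM have exact conditional 95% intervals, checked on simulated data. A gene is called higher or lower from 2-fold, given at least 50 CPM in the higher group. Where a share is 0, the limit is 3 counts of the total. Named against other macrophages were the 15 highest and 10 lowest genes past 2-fold in both libraries, ranked by the bound nearest 1, and between muscles the 12 highest and 12 lowest. Left out of the ranking were mitochondrial, ribosomal, haemoglobin, predicted, Riken, Xist, Y-linked and gate genes and those over 20% ambient in the cell group where they are higher (the lower group could be above this), an estimate from barcodes with 10 to 100 UMIs. List genes past 2-fold, the markers, Trem2, Cd9, Apoe, Igf1 and Tgfb1 were added, and other genes were named after their values were seen. The Lyve1 group has at least 3 UMIs of Lyve1, Timd4 and Cd163 together. Doublets were left to the gate and removed with Scrublet as an alternative. The work used scanpy 1.11.5, scipy 1.17.1, matplotlib 3.10.9, pandas 2.3.3 and numpy 2.4.6 under Python 3.11.15.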

Additional observations from a re-analysis of the deposited data

Results flagged for a closer look

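Folr2 and Itgax lay above the other macrophages in quadriceps members and below them in diaphragm members. The log2 ratio of members over other macrophages was 0.37 for Folr2 in quadriceps and -0.59 in diaphragm. For Itgax it was 0.79 in quadriceps and -0.54 in diaphragm. Each value comes from 1 library, and the difference between muscles was not tested.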

How the results depend on the processing

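No paired analysis was possible because each group is 1 library. Shares of macrophages and of all barcodes moved with the gate. They are given here as quadriceps macrophages, quadriceps barcodes, diaphragm macrophages and diaphragm barcodes. With Gpnmb at least 5 and Spp1 at least 10 they were 15.4%, 5.59%, 18.4% and 3.46%, with Gpnmb at least 2 and Spp1 at least 3 26.6%, 9.83%, 28.9% and 5.59%, and gated on cells thinned to 3000 UMIs 14.4%, 6.06%, 16.2% and 3.61%. With a mitochondrial limit of 5% they were 18.8%, 5.51%, 27.4% and 5.70%, which turns the order of the barcode shares, and with C1q asked of members 19.2%, 6.86%, 19.1% and 3.43%. A minimum of 3000 UMIs gave 23.5% and 9.64% in quadriceps and 5.78% of diaphragm barcodes. Left-out Scrublet calls, or the 6% of barcodes with the highest scores (chosen after seeing the data), moved none of the 4 outside its interval. With 0 calls in quadriceps, leaving out the calls could not move the quadriceps shares.

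Genes higher and lower in both muscles were 81 and 156 with a minimum of 10 CPM, 157 and 184 at 1.5-fold, and 88 and 109 without comparator cells near the gate. Between muscles they were 64 and 151 with 10 CPM and 109 and 170 at 1.5-fold. The median of the monocyte list in diaphragm changed sign when the comparator was not asked for C1q, to -0.27 from 0.36; that comparator holds the monocytes by construction. Of 1062 named gene ratios under these alternatives, 6 fell under 2-fold, 4 of them with the 5% mitochondrial limit (Hsp90aa1 at log2 0.91 beside Arg1, Il1b and Thbs1), with Fabp4 in quadriceps on thinned cells (0.97) and F13a1 with the looser gate (0.94), and 0 reversed. The 1062 include 74 ratios each for the 10 CPM minimum and the 1.5-fold rule, which could not change a ratio. With 0 Scrublet calls in quadriceps, ratios within that library could not move when the calls were left out. A further measure, a move by over 1.5-fold, was met by 52 of the ratios, 24 of them without comparator cells near the gate, 11 with the 5% mitochondrial limit and 9 on thinned cells. The cause of these shifts was not tested.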
